A study of Mus musculus with 12 samples.

Results

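miR-675 and miR-483 are the microRNAs (miRNAs) of the imprinted H19/Igf2 domain, and they were taken here as every mouse-named array probe with either number and no star in its name. Of the 417 mouse probes on the array, 2 met that description, miR-675-5p and miR-675-3p. The tables used here held 0 mouse probes for miR-483, 0 star-strand probes and 0 probes named for another species with either number, so miR-483 was not analysed here. The cells were BC3H1, a line from a mouse brain tumour that shows features of muscle cells, and 12 arrays fell into 3 groups of 4. RR_Rap was the resistant line RR1, selected from BC3H1 over 6 months in rapamycin at 1 µM, which stayed in its medium. RS_Rap was the sensitive parent after 24 h in 100 nM rapamycin, and RS_DMSO was the sensitive parent after 24 h in the solvent DMSO. RR1 was 1 selected line and was sampled only in the drug, so resistance and the drug's presence cannot be told apart in it. The labels do not say whether the replicates of a group were grown separately, so a p-value here reflects the spread among the arrays of a group, part of which may be technical.

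H19 and Igf2 are neighbouring genes that are read from opposite parental chromosomes. H19, a long non-coding RNA made from the maternal copy, carries the miR-675 hairpin in its first exon, and Igf2, a growth factor gene read from the paternal copy, holds the miR-483 hairpin. In mouse, miR-675 is known to limit placental growth, with Igf1r among its targets, and both of its arms are known from mouse muscle cells as promoters of differentiation. Rapamycin inhibits mTORC1, the kinase complex that couples growth factors and nutrients to protein synthesis.

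The hairpin and both arms are printed because the array measured the arms separately and the results differ between them. Sequences are those of RefSeq on GRCm38.p6, where Mir675 lies at chr7:142577064-142577147 on the minus strand, inside H19 at chr7:142575530-142578146. Igf2 lies at chr7:142650768-142666816, with Mir483 inside it, and 77777 bases separate Mir675 from Mir483. In the 84-base hairpin, capitals mark the arms, with miR-675-5p at positions 15 to 36 and miR-675-3p at 49 to 70. In each mature sequence, capitals mark the seed, bases 2 to 8, which pairs with target RNAs.
mir-675 hairpin: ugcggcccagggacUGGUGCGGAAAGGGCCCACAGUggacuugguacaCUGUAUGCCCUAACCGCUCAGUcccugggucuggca
miR-675-5p: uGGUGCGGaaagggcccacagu
miR-675-3p: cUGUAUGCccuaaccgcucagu
miR-675-5p lies at chr7:142577112-142577133 and miR-675-3p at chr7:142577078-142577099, and each is 22 bases long. The arms have different seeds. None of the other mature mouse miRNAs among the 1679 in the RefSeq table has either seed (0 for each arm). GC content was 63.6% for miR-675-5p and 54.5% for miR-675-3p. The median was 52.4% over the 93 of 414 array names that were found in that table under the same name.

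Each array compared a sample labelled with Hy3 with a common pool labelled with Hy5, and no array had the dyes swapped. Over all spots, array medians lay between 107 and 144 for Hy3 and between 70.7 and 100.2 for Hy5, and the median Hy5 signal lay below the Hy5 local background on 12 of 12 arrays. To stand above the negative controls, a probe needed a median Hy3 signal over that of all 7 negative controls on 3 or more arrays of any group, as 219 of 417 mouse probes had. RS_DMSO 3 stood apart, with correlations of 0.574 to 0.709 across probes with its own group and a highest negative control of 304.5, against at most 162 on the other arrays. Of the muscle-enriched miRNAs, 2 of 7 probes were above the negative controls, miR-1 and miR-206. The same held for 2 of 3 neuron probes (not miR-124), 1 of 4 blood-cell probes, 0 of 5 epithelial, 0 of 1 liver and 0 of 2 endothelial probes. The groups were scanned in consecutive runs, so scan order and group cannot be told apart.

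miR-675-5p was lowest in the resistant line and highest in sensitive cells after 24 h of rapamycin. Its normalized log2 ratio of sample to pool was -1.46, -1.54, -1.54 and -1.55 on RR_Rap arrays 1 to 4. On RS_Rap arrays 1 to 4 it was 1.35, 1.11, -0.0018 and 0.76. On RS_DMSO arrays 1 to 4 it was 0.08, -0.25, -0.42 and 0.17. All 4 RR_Rap arrays lay below every array of sensitive cells, while RS_Rap 3 alone of its group fell inside the RS_DMSO range. The group means were -1.52 ± 0.04 in RR_Rap, 0.80 ± 0.59 in RS_Rap and -0.11 ± 0.28 in RS_DMSO (SD, n = 4 each). The 4 spots of the probe gave nearly the same value on RS_Rap 3 (-0.02 to 0.03), so its low value there did not rest on a single spot. Across arrays the SD of the 4 spots ran from 0.0153 to 0.213, the highest on RS_DMSO 4, where 1 spot stood at 0.49.

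**Figure D1:**
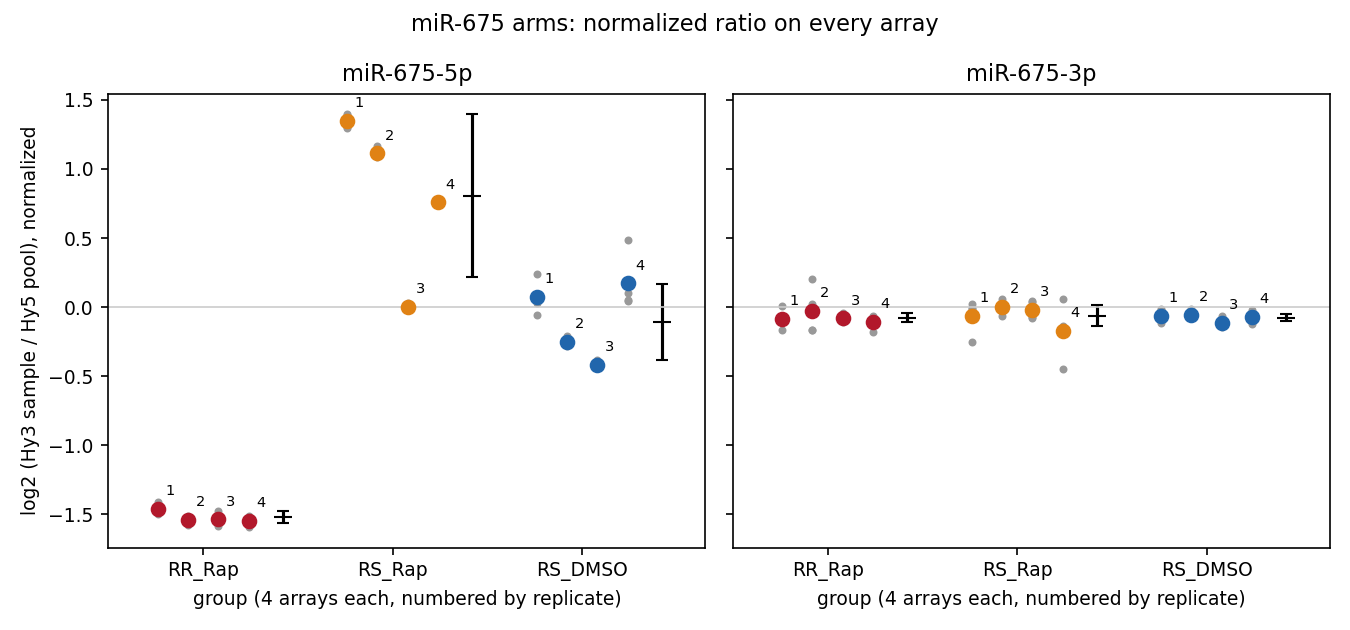
Normalized log2 ratio of Hy3 sample over Hy5 pool (vertical axis) for both arms of miR-675 in the 3 groups; coloured points are arrays, numbered by replicate, grey points are the spots behind them, and black bars are the group mean ± SD (n = 4). miR-675-5p separated RR_Rap, near -1.52, from all other arrays, whereas miR-675-3p stayed between -0.17 and -0.0018 on all 12 arrays.

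The resistant line in rapamycin was first set against sensitive cells in DMSO, from which it differed in both selection and the drug. miR-675-5p changed in RR_Rap relative to RS_DMSO by -1.42 ± 0.24 on the log2 scale (SE), which is 2.67-fold lower, with a 95% interval of -1.93 to -0.90 (limma adjusted p = 0.000683). It was the 7th lowest of the 417 probes in this comparison, where 10.3% of all probes were called lower and 23.3% were called in either direction. Its RR_Rap and RS_DMSO arrays did not overlap, as was the case for 25.4% of all probes.

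The resistant line was next set against the same parent exposed to rapamycin for 24 h, where the dose and the length of exposure also differed. miR-675-5p changed in RR_Rap relative to RS_Rap by -2.33 ± 0.24 (SE), 5.02-fold lower, with a 95% interval of -2.84 to -1.81 (limma adjusted p = 1.18e-05). No other probe of the 417 had a lower change. Here 13.7% of probes were called lower and 28.8% in either direction, and the arrays of 39.8% of probes did not overlap between the groups, miR-675-5p among them.

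Short exposure of sensitive cells gave miR-675-5p a change of 0.91 ± 0.24 (SE) in RS_Rap relative to RS_DMSO, 1.88-fold, with a 95% interval of 0.39 to 1.43. The fit holds 1 spread per probe for all groups, so this SE and interval also draw on RR_Rap. The SDs were 0.59 in RS_Rap, 0.28 in RS_DMSO and 0.04 in RR_Rap. The limma adjusted p of miR-675-5p was 0.05005, so it was not called at 0.05, although its change was the highest of the 417 probes. In this comparison 3.36% of probes were called, 1.68% higher, and miR-675-5p was 15th by p, directly after the 14 that were called. The value rested on single arrays. Without RS_Rap 3 the change was 1.18 (adjusted p = 0.00171), without RS_DMSO 4 it was 1.00 (adjusted p = 0.0350), and without RS_DMSO 3, the array that stood apart, it was 0.81 (adjusted p = 0.0739). Of the 12 fits that each left out 1 array, 2 called it, with adjusted p up to 0.142. Processing also moved the call, which passed in 9 of 14 other settings and missed 0.05 in 5 (adjusted p up to 0.146). It passed in the deposited value table (1.30, adjusted p = 0.00166) and without loess (1.19, adjusted p = 0.00317). In the value table the RS_Rap arrays ran from 0.217 to 1.66 and the RS_DMSO arrays from -0.482 to -0.00816. Many more probes were called in these 2 settings, 105 higher and 6 lower in the value table and 92 and 31 without loess.

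**Figure D2:**
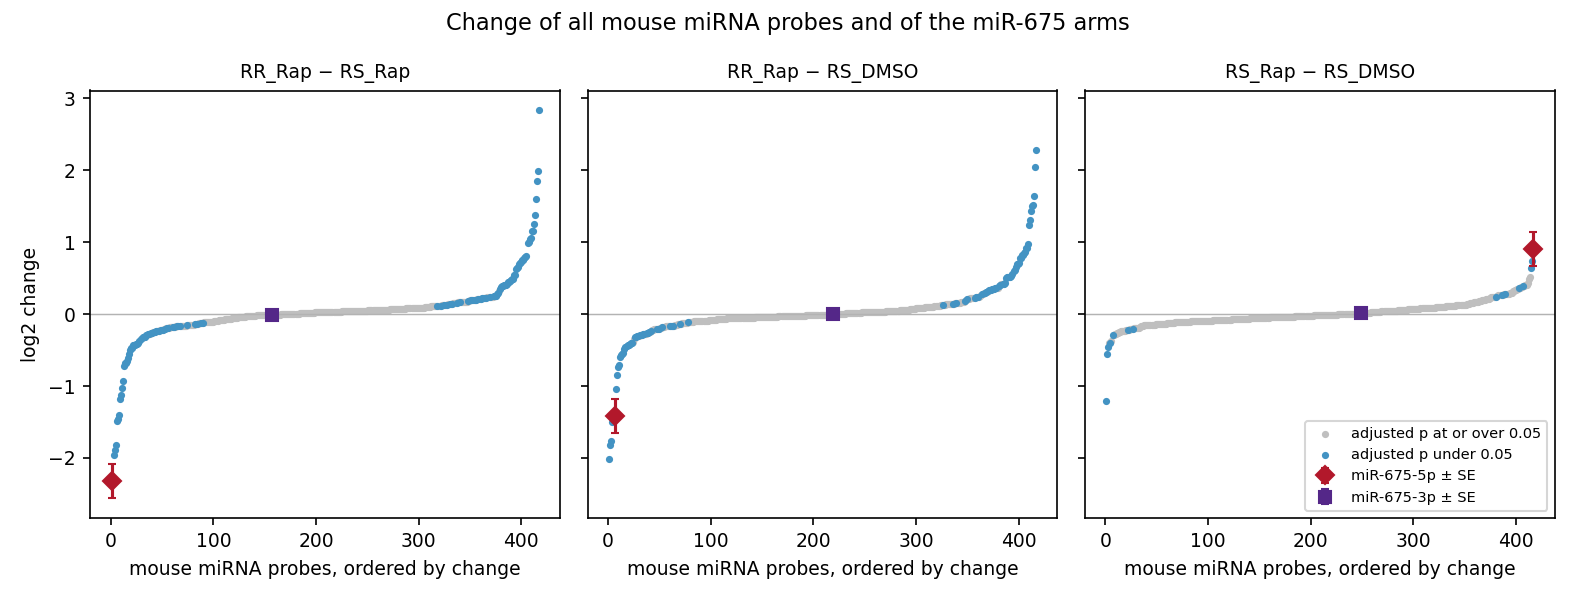
Log2 change of the 417 mouse probes (vertical axis) ordered by size in each comparison (horizontal axis), with miR-675-5p as a red diamond and miR-675-3p as a purple square, each ± SE, and probes at a limma adjusted p under 0.05 in blue. miR-675-5p stood at the low end in both comparisons of the resistant line and at the high end in RS_Rap against RS_DMSO, and miR-675-3p stood near 0 in all 3.

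The unnormalized signals showed which channel carried these differences. In Hy3, miR-675-5p gave 145, 130, 155 and 147 scanner units on RR_Rap arrays 1 to 4. It gave 1095, 937, 430 and 854 units on RS_Rap arrays 1 to 4. On RS_DMSO arrays 1 to 4 it gave 396, 278, 316 and 373 units. The groups did not overlap in these Hy3 signals, and RS_Rap 3 was the lowest of its group but above every RS_DMSO array. The share of all probes without such overlap was not computed. Array median Hy3 over all spots was 113.9 to 118.5 in RR_Rap, 107.3 to 113.9 in RS_Rap and 116.1 to 143.7 in RS_DMSO. Each of the 3 exact two-sided permutation tests of the log2 Hy3 signal gave p = 0.0286, the smallest that 4 against 4 arrays allow (adjusted p = 0.0686 over 12 tests of both arms and channels). In Hy5, the pool gave a mean of 431 ± 41.5 units in RR_Rap, 366 ± 24.3 in RS_Rap and 387 ± 9.68 in RS_DMSO (SD, n = 4 each), and the 3 exact permutation p-values were 0.0571 for RR_Rap against RS_Rap, 0.114 for RR_Rap against RS_DMSO and 0.2 for RS_Rap against RS_DMSO.

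In the resistant line miR-675-5p lay close to the level of the negative controls. Its median Hy3 signal was 0.979 to 1.17 times the highest negative control on the RR_Rap arrays, below it on RR_Rap 2. The ratio was 3.38 to 8.74 on the RS_Rap arrays and 1.05 to 2.64 on the RS_DMSO arrays, with the lowest of these on RS_DMSO 3. After subtracting the local background, mean Hy3 signals were 95.1 units in RR_Rap, 780 in RS_Rap and 286 in RS_DMSO. These give 3.01-fold lower signal in RR_Rap than in RS_DMSO and 8.2-fold lower than in RS_Rap, and 2.73-fold higher signal in RS_Rap than in RS_DMSO. The folds from the fit were smaller, 2.67, 5.02 and 1.88. With RR_Rap this close to the negative controls, the folds for that line do not measure how far miR-675-5p lay below the sensitive cells. In bulk RNA, fewer cells making miR-675 and less of it per cell cannot be told apart.

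**Figure D3:**
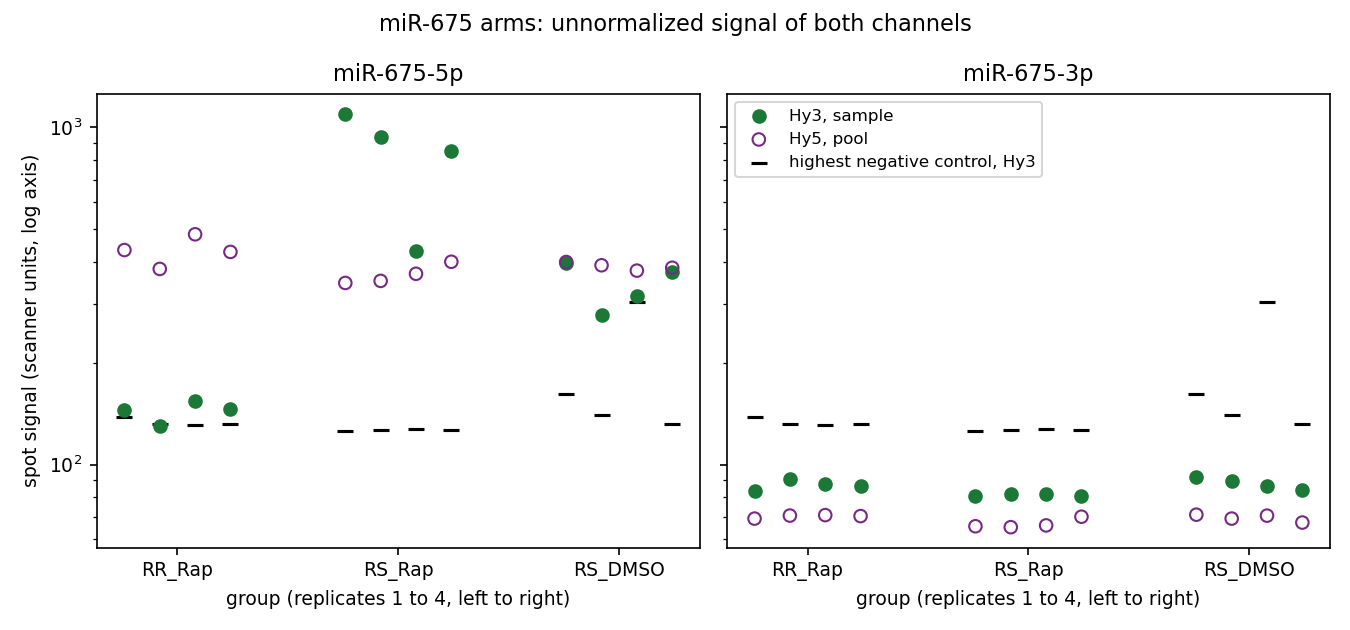
Spot signal in scanner units on a log axis (vertical) for each array of the 3 groups, with the sample channel Hy3 as filled green points, the pool channel Hy5 as open purple points and the highest Hy3 negative control of that array as a black dash. Hy3 of miR-675-5p ran from 130 to 155 in RR_Rap, close to the negative controls, and from 430 to 1095 in RS_Rap, while miR-675-3p lay below the negative controls on every array.

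miR-675-3p, the other arm of the hairpin, was not detected above the negative controls in any group. Its Hy3 signal was 83.7 to 90.7 units in RR_Rap, 80.4 to 82.1 in RS_Rap and 84.3 to 91.7 in RS_DMSO, which was 0.284 to 0.677 of the highest negative control over the 12 arrays. The RS_Rap arrays lay below both other groups without overlap (exact permutation p = 0.0286 for each, adjusted p = 0.0686), in a range of signals under the negative controls. These signals are unnormalized, and the share of all probes without such overlap was not computed. Its pool signal, 65.2 to 71.0 units, was also below the local Hy5 background of 80.8 to 100. Mean log2 ratios were -0.08 ± 0.03 in RR_Rap, -0.06 ± 0.08 in RS_Rap and -0.08 ± 0.03 in RS_DMSO (SD, n = 4 each). The fitted changes had 95% intervals of -0.09 to 0.09 for RR_Rap against RS_DMSO (limma adjusted p = 0.996), -0.10 to 0.08 for RR_Rap against RS_Rap (adjusted p = 0.893) and -0.08 to 0.10 for RS_Rap against RS_DMSO (adjusted p = 0.872). With both channels at background, these intervals bound the ratio on the array and do not measure the arm's level in the cells.

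The arms were also compared within each array, as the log2 ratio of miR-675-5p minus that of miR-675-3p. This difference was -1.38, -1.52, -1.46 and -1.44 on RR_Rap arrays 1 to 4. On RS_Rap arrays 1 to 4 it was 1.41, 1.12, 0.0173 and 0.93, and on RS_DMSO arrays 1 to 4 it was 0.139, -0.196, -0.306 and 0.244. The order of the groups was that of miR-675-5p alone, since miR-675-3p hardly varied. Exact two-sided permutation tests, adjusted over the 3 comparisons, gave a change of -1.42 in RR_Rap relative to RS_DMSO (adjusted p = 0.0429), -2.32 relative to RS_Rap (adjusted p = 0.0429) and 0.90 in RS_Rap relative to RS_DMSO (adjusted p = 0.0857). Because miR-675-3p lay under the negative controls, this does not show unequal abundance of the arms in the cells.

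The 5 probes whose ratios followed miR-675-5p most closely over the 12 arrays, among 218 others above the negative controls, were miR-129-5p, miR-667, miR-291b-5p, miR-125b-5p and miR-690. Their Pearson r was 0.967, 0.963, 0.951, 0.946 and 0.919 in that order. These arrays share a pool and fall into 3 groups, so the values describe mainly the group pattern, and no p is given. After each group's mean was subtracted, r was 0.638, 0.721, 0.892, 0.467 and 0.643 in the same order. The printed mature sequences, with seeds in capitals, show that none of these seeds is that of miR-675-5p; the array name miR-667 does not say which arm it measures, so none is printed for it.
miR-129-5p: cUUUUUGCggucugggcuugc
miR-291b-5p: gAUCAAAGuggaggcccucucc
miR-125b-5p: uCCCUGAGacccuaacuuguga
miR-690: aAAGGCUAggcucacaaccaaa
miR-291b-5p lies at chr7:3219494-3219515 on the plus strand, and miR-690 at chr16:28599940-28599961 on the minus strand. All 5 had their lowest group mean in RR_Rap and their highest in RS_Rap, an order that choosing them by r favours. miR-667, from the imprinted Dlk1-Dio3 region, averaged -1.84 ± 0.24 in RR_Rap, 0.12 ± 0.38 in RS_Rap and -0.37 ± 0.14 in RS_DMSO. miR-125b-5p, a lin-4 family miRNA, averaged -0.81 ± 0.03 in RR_Rap, 0.32 ± 0.10 in RS_Rap and 0.04 ± 0.12 in RS_DMSO. miR-690 averaged -0.93 ± 0.20 in RR_Rap, 0.25 ± 0.31 in RS_Rap and 0.12 ± 0.19 in RS_DMSO. miR-291b-5p, of an embryonic stem cell cluster, averaged -0.99 ± 0.08 in RR_Rap, 0.04 ± 0.31 in RS_Rap and -0.60 ± 0.20 in RS_DMSO. miR-129-5p had the narrowest range of the 5, with -0.31 ± 0.10 in RR_Rap, 0.36 ± 0.07 in RS_Rap and 0.09 ± 0.10 in RS_DMSO (SD, n = 4 each).

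**Figure D4:**
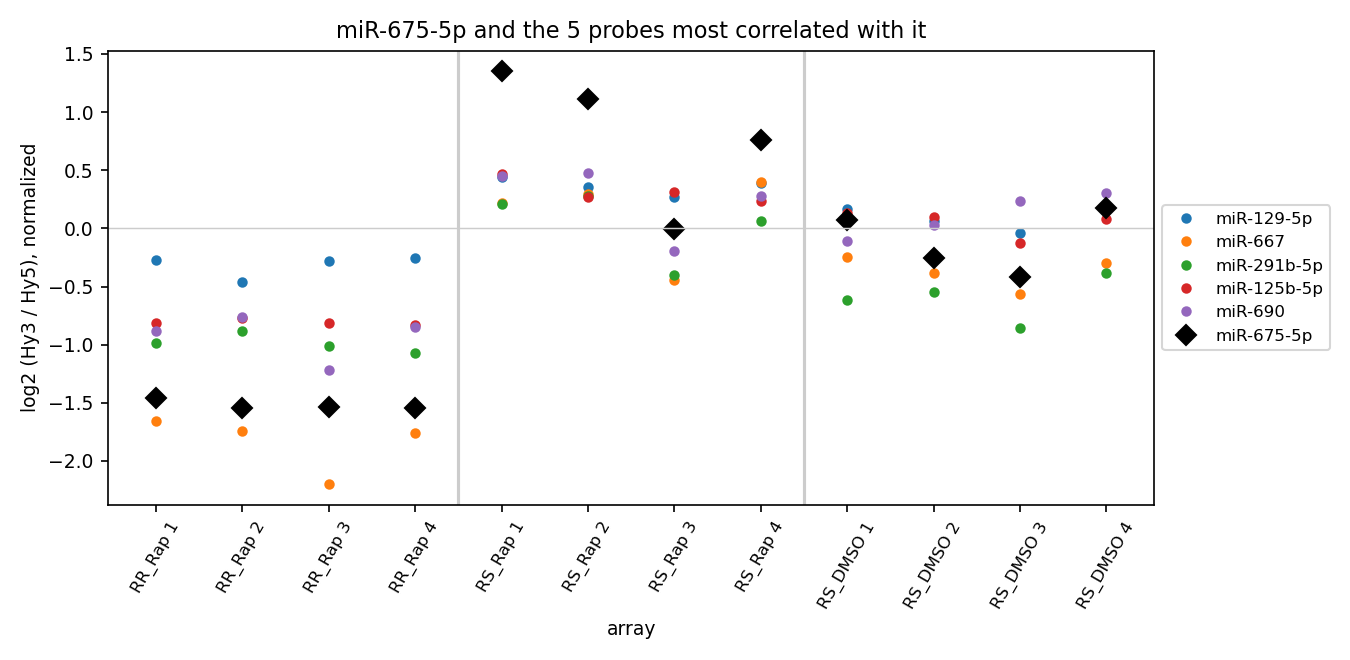
Normalized log2 ratio (vertical axis) on each of the 12 arrays for miR-675-5p (black diamonds) and the 5 probes most correlated with it (coloured points). All 6 were lowest on the RR_Rap arrays, which choosing the 5 by their correlation favours. miR-675-5p, miR-667, miR-690 and miR-291b-5p dipped together on RS_Rap 3.

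The low value on RS_Rap 3 was shared by some of these probes, as was noticed after the values were seen. On that array miR-675-5p lay 1.08 below the mean of the other 3 RS_Rap arrays on the log2 scale, the widest such gap of the 219 probes above the negative controls. miR-667 followed with 0.75, then miR-690 and miR-291b-5p with 0.59 each. No other probe was over 0.5 below there (4 of 219), against 0, 1 and 0 probes on RS_Rap 1, 2 and 4. In the deposited value table RS_Rap 3 was also the lowest of the 4 arrays for each of these probes, at 0.217 for miR-675-5p, -0.210 for miR-667, 0.148 for miR-690 and 0.223 for miR-291b-5p. RS_Rap 3 was the lowest of its group for 30 of 219 probes (13.7%), and it correlated with its group at 0.864 to 0.877. Loess within arrays removes an array-wide level, so that count cannot show one. Unnormalized, its median Hy3 over all spots was 111.9, and the other RS_Rap arrays ran from 107.3 to 113.9.

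Other imprinted miRNAs were followed as a list of 52 probes, mostly from Dlk1-Dio3, with the Gnas, Mest and Sfmbt2 regions. In RR_Rap relative to RS_DMSO, 2 were called higher and 5 lower (13.5%, against 23.3% of all probes, 12.9% higher and 10.3% lower), with a median change of 0.02, against -0.01 over all probes. Relative to RS_Rap, 5 were higher and 8 lower (25.0%, against 28.8%, 15.1% higher and 13.7% lower). After 24 h, RS_Rap had 0 higher and 2 lower than RS_DMSO (3.8%, against 3.36%). The balance of directions turned with the scaling. Relative to RS_Rap it was 18 higher and 10 lower without loess, but spike-in centring gave 1 higher and 11 lower, and 1 was higher and 15 lower in the value table. Of all 417 mouse probes, 246 were called there without loess, and the value table gave 15 higher and 121 lower. The directions of the 246 and the count with spike-in centring are not given here. Over the 14 other settings, 54 to 246 probes were called. After 24 h it was 4 higher and 7 lower without loess, 7 and 1 by spike-in centring, and 8 and 2 by the value table. Over all probes the same settings gave 92 higher and 31 lower, 108 and 7, and 105 and 6. Of these probes 21 were above the negative controls. The 3 with the smallest p in both comparisons of the resistant line were miR-667, miR-370 and miR-494, all from Dlk1-Dio3. miR-667 fell by 1.47 ± 0.17 relative to RS_DMSO (SE, limma adjusted p = 4.68e-05) and fell by 1.95 ± 0.17 relative to RS_Rap (adjusted p = 3.19e-06). miR-370 rose by 0.92 ± 0.12 (adjusted p = 0.000106) and 1.15 ± 0.12 (adjusted p = 1.37e-05) in those comparisons. miR-494 rose by 0.55 ± 0.10 (adjusted p = 0.00109) and 0.80 ± 0.10 (adjusted p = 6.75e-05). In the value table the change of miR-370 relative to RS_DMSO was 0.35 and not called. With Hy3 alone that of miR-494 relative to RS_DMSO was 0.96 and not called (limma adjusted p = 0.112). Relative to RS_Rap, miR-494 was not called with Hy3 alone, with spike-in centring, in the value table or without loess. Imprinted miRNAs therefore stood on both sides of 0 in the resistant line. After 24 h, miR-668 changed by -0.45 ± 0.09 (adjusted p = 0.0212), but its sign turned in the value table (0.41), with spike-in centring (0.35) and without loess (0.28). miR-669b changed by -0.22 ± 0.05 (adjusted p = 0.0367), lay below the negative controls and turned to 0.10 with Hy3 alone. Its call was also lost with an offset of 10, in the value table and with spike-in centring.

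The list of miRNAs linked to H19 or Igf2 RNA by published targeting held 12 probes: the let-7 family and miR-141 and miR-200a, reported to be bound by H19 RNA, and miR-125b, reported to target Igf2. In RR_Rap relative to RS_DMSO 1 was called higher and 4 lower (41.7%, against 23.3% of all probes), with a median of -0.10, against -0.01 over all probes. Relative to RS_Rap the counts were again 1 and 4 (41.7%, against 28.8%), with a median of -0.07, against 0.03. After 24 h, 1 was higher and 0 lower (8.3%, against 3.36%), and the median was -0.05, against -0.02. Relative to RS_Rap, the fit without loess gave 1 higher and 8 lower with a median of -0.60, the value table none higher and 7 lower with -0.65, and spike-in centring 0 and 8 with -0.66; processed signals gave 0 and 3 with 0.003. After 24 h the first 3 of these scalings gave 7 higher and 2 lower with a median of 0.46, 7 and 0 with 0.57, and 7 and 1 with 0.52, so both the counts and the sign of the 24 h median rested on the scaling. Calls over all 417 mouse probes moved too. Relative to RS_Rap, 246 were called without loess, and the value table gave 15 higher and 121 lower. Counts there with spike-in centring and processed signals are not given here. Over the 14 other settings, 54 to 246 probes were called relative to RS_Rap. After 24 h all probes gave 92 higher and 31 lower, 105 and 6, and 108 and 7 in the same order. The all-probe medians stayed between -0.055 and 0.083 relative to RS_Rap and between -0.028 and 0.039 after 24 h. miR-125b-5p fell by 0.85 ± 0.06 in RR_Rap relative to RS_DMSO (SE, limma adjusted p = 6.76e-07) and fell by 1.13 ± 0.06 relative to RS_Rap (adjusted p = 4.60e-08), and it was the probe called higher after 24 h, by 0.28 ± 0.06 (adjusted p = 0.0321), a call lost with an offset of 10 and with processed signals. With Hy3 alone it was called in none of the comparisons (adjusted p = 0.397 against RS_DMSO and 0.0597 against RS_Rap in RR_Rap, and 0.267 after 24 h). let-7i fell by 0.44 ± 0.05 relative to RS_DMSO (adjusted p = 2.05e-05) and fell by 0.35 ± 0.05 relative to RS_Rap (adjusted p = 0.000116). let-7b fell by 0.28 ± 0.05 (adjusted p = 0.00131) and fell by 0.24 ± 0.05 (adjusted p = 0.00436). The other called members, named because so few were called, were let-7c, lower in both, let-7f, at 0.30 against RS_DMSO, and let-7d, at 0.24 against RS_Rap. The signs of let-7f and let-7d turned without loess and with spike-in centring, and that of let-7d in the value table too. let-7c lost its call relative to RS_DMSO in 6 of 8 other scalings and its call relative to RS_Rap with an offset of 10, with processed signals and with Hy3 alone. let-7b lost both calls with processed signals and with Hy3 alone. Relative to RS_Rap, spike-in centring moved let-7i to -0.99, let-7b to -0.97, let-7c to -0.95 and miR-125b-5p to -1.82. Members of the let-7 family share a seed and nearly their whole sequence, so signals of different let-7 probes may be shared between them. H19 and Igf2 RNA were not measured on these arrays.

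The muscle-enriched list bears on miR-675 through its known role in muscle cells. None of its 7 probes was called in either comparison with RS_DMSO (0 of 7 in each, against 3.36% of all probes after 24 h and 23.3% in RR_Rap). Other scalings did call members: RS_Rap had 2 higher than RS_DMSO in the value table, 2 higher with spike-in centring, and 2 higher and 1 lower without loess, and RR_Rap had 2 lower than RS_DMSO in each of those 3 settings. Over all 417 mouse probes, RS_Rap had 105 higher and 6 lower, 108 and 7, and 92 and 31 in these settings. RR_Rap had 32 higher and 44 lower than RS_DMSO in the value table and 46 and 54 without loess. The count there with spike-in centring is not given here. Over the 14 other settings, 55 to 103 probes were called in RR_Rap relative to RS_DMSO. In RR_Rap relative to RS_Rap, 1 was called higher and 2 lower (42.9%, against 28.8% of all probes). Without loess 4 were higher and 2 lower, where 246 of all 417 probes were called, in directions not given here. In the fit as reported, miR-1 changed relative to RS_Rap by -0.68 ± 0.20 (SE, limma adjusted p = 0.0230) and miR-206 by -0.61 ± 0.19 (adjusted p = 0.0339). Both are made in differentiated muscle cells. miR-208, a heart muscle miRNA, was called higher there by 0.41 ± 0.08 (adjusted p = 0.00156) but lay below the negative controls and lost its call in the value table, with spike-in centring and with Hy3 alone. The calls of miR-1 and miR-206 were lost with Hy3 alone, and processed signals moved them to -1.28 and -1.05. The median of the list was -0.04 in this comparison.

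Both comparisons of the resistant line kept miR-675-5p lower, at an adjusted p under 0.05, in every setting tried, whereas its 24 h change moved across the threshold with the setting. Over 14 other settings the change in RR_Rap relative to RS_DMSO ran from -2.02 to -0.97 and that relative to RS_Rap from -3.30 to -2.14. Over the 12 fits that each left out 1 array they ran from -1.52 to -1.32 and from -2.60 to -2.14. The 24 h change was positive throughout, from 0.73 to 1.30.

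**Figure D5:**
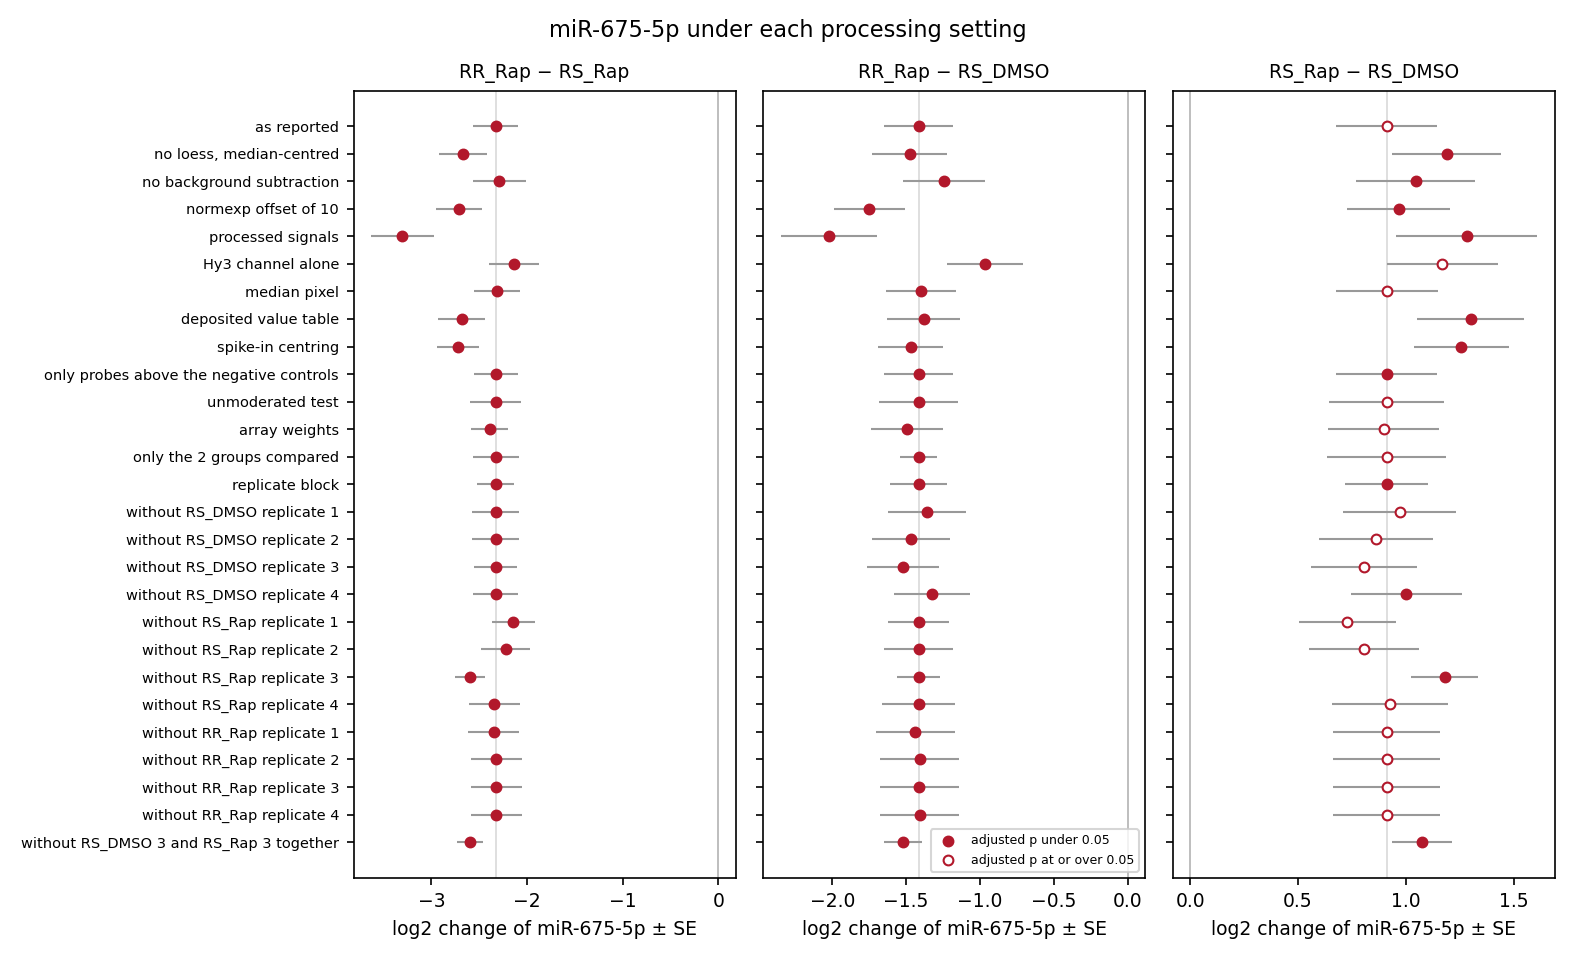
Log2 change of miR-675-5p ± SE (horizontal axis) under each processing setting (rows, with the value as reported at the top) in the 3 comparisons; filled points have an adjusted p under 0.05 and open points do not. Both comparisons of RR_Rap were filled in every setting, and in RS_Rap against RS_DMSO the fill changed between settings around a change of 0.73 to 1.30.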

How the data were processed

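The 12 total RNA samples were hybridised to Exiqon miRCURY LNA arrays, version 10.0, in 2 colours. The intensity values used, the mean signal and median local background of each spot in both channels, are those the authors deposited. Per the submitters' processing notes they come from Agilent Feature Extraction 9.5.3.1. They are not normalized. The deposited value table holds log2 values of unstated scale. Against the raw log2 of Hy3 over Hy5 it gave r of 0.977 to 1.00 and slopes of 0.987 to 1.01, so it is sample over pool, with array medians of 0.393 to 0.604 and no centring seen. Its summary over spots is unstated. By the labels, the pool is a mixture of 3 conditions in equal amounts in 1 place and of 9 samples in another, which leaves its makeup unsettled. No sample column was left unused.

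In limma 3.58.1 (R 4.3.3), background was corrected with normexp (offset 50, which shrinks changes of dim probes), ratios were normalized by loess within arrays with control spots at weight 0, spots flagged by the software as outliers were dropped, and the 4 spots of a probe were averaged. The software's well-above-background flag was set for at least 9463 of the 9468 spots per array, and no probe was dropped for low signal. A single lmFit and eBayes fit held the 12 arrays. Its p-values were adjusted by Benjamini-Hochberg over 417 mouse probes, with a threshold of 0.05. Channel signals and arm differences were compared by exact permutation tests, two-sided. The script was tested on simulated data. Precision is limited by the number of arrays. The members, lists and rules were chosen with earlier results of these data known. The text names both members, the 5 probes most correlated with a member above the negative controls, and from each list up to 3 probes with the smallest p.

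Arrays with the same replicate number did not deviate together (r of -0.114 to 0.152 over 12 pairs, 2 above 0.1). No pairing by number was seen, although low r cannot exclude it. Alternatives changed the background correction, offset, signal, scaling, filter, test, weights, samples and replicate block. Spike-in centring and the joint removal of RS_DMSO 3 and RS_Rap 3 were added after the values were seen. Slide and scan date were not used as blocks, since each slide held 1 array and all arrays shared a scan day.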

Additional observations from a re-analysis of the deposited data

Results flagged for a closer look

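In 2 of 21 groups of 4 values tested, 1 array lay far from the other 3: its gap to the nearest of them, divided by the whole range, passed Dixon's 95% critical value. Chance gives such a value in about 1 in 20 groups. For the normalized log2 ratio of miR-675-5p in RR_Rap the ratio was 0.909, because RR_Rap 1 stood at -1.46 and the other arrays between -1.55 and -1.54. The whole range was under 0.1, small beside the change of -1.42 relative to RS_DMSO. For the Hy5 pool signal of miR-675-3p in RS_Rap the ratio was 0.835, with RS_Rap 4 at 70.0 units and the other arrays from 65.2 to 66.0, all below the local background. RS_Rap 3, the low array for miR-675-5p, did not pass that value (0.562 for the log2 ratio).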

How the results depend on the processing

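miR-675-5p kept its direction in all settings and comparisons, and its calls in RR_Rap held in all 14 settings and all 12 fits without 1 array, with adjusted p up to 0.0322 and 0.00341 against RS_DMSO. Its 24 h change passed 0.05 without loess (1.19), without background subtraction (1.04), with an offset of 10 (0.97), with processed signals (1.28), in the value table (1.30), with spike-in centring (1.26), over probes above the negative controls (0.91, adjusted p = 0.0344) and without both RS_DMSO 3 and RS_Rap 3 (1.07). With the replicate block it was 0.91 (adjusted p = 0.0391), although no pairing by number was seen, and the block changed no other call of a member. In 5 of the 14 settings the 24 h change was not called (adjusted p up to 0.146). Leaving out 1 array gave 0.73 to 1.18, called in 2 of 12 fits (adjusted p up to 0.142). miR-675-3p, at background, changed sign in several settings. In RS_Rap against RS_DMSO it was -0.12 without loess, -0.041 with an offset of 10, -0.62 with processed signals, -0.048 with Hy3 alone, -0.052 in the value table, -0.049 with spike-in centring and -0.015 without both arrays. In RR_Rap against RS_DMSO it was -0.042 without background subtraction, -0.059 with an offset of 10, -0.42 with processed signals, -0.015 with Hy3 alone, -0.023 in the value table, -0.020 with array weights and -0.012 without both arrays. In RR_Rap against RS_Rap it was 0.21 without loess (adjusted p = 0.00307), 0.20 with processed signals, 0.032 with Hy3 alone, 0.029 in the value table, 0.15 with spike-in centring and 0.0034 without both arrays. Leaving out 1 array gave -0.0089 to 0.048, -0.016 to 0.011 and -0.048 to 0.0092 in these comparisons. The arm difference after 24 h passed 0.05 without loess (1.31), with Hy3 alone (1.22), in the value table (1.35) and with spike-in centring (1.31), while with processed signals -1.60 and -3.51 in RR_Rap against RS_DMSO and RS_Rap missed it (adjusted p = 0.0571). Leaving out 1 array gave 0.72 to 1.18, -1.51 to -1.32 and -2.60 to -2.13, where 3 against 4 arrays allow no p under 0.0571. The count of called probes after 24 h, 14 as reported, was 123 without loess (92 higher, 31 lower), 49 without background subtraction, 35 with processed signals (14 higher, 21 lower), 2 with Hy3 alone, 111 in the value table (105 higher, 6 lower), 115 with spike-in centring (108 higher, 7 lower) and 5 with 2 groups in the fit. For RR_Rap against RS_DMSO, 97 as reported, it was 55 with Hy3 alone, and the value table gave 32 higher and 44 lower. For RR_Rap against RS_Rap, 120 as reported, it was 246 without loess, 54 with Hy3 alone and 183 with array weights, and the value table gave 15 higher and 121 lower. Leaving out 1 array gave 4 to 34, 77 to 107 and 97 to 145. The median of all probes moved by over 0.1 only with processed signals, to -0.13 in both comparisons with RS_DMSO. The causes were not tested.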
